A study of Arabidopsis thaliana with 24 samples.

Results

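The 10 NAC genes described here are transcription factor genes of drought and leaf senescence. They are ANAC019, ANAC055, RD26 (also ANAC072), NAP, ORE1 (also ANAC092), ATAF1, ATAF2, NAC032, NAC102 and NAC016. They were picked by their locus identifiers out of the 27664 genes listed for each library. These genes, and the gene lists set beside them below, were chosen with earlier results of these data known. All 10 passed the filter on low counts that left 18841 genes for testing. Their mRNA was read in 24 RNA-seq libraries of Arabidopsis thaliana rosette leaves. The plants were wild type (WT) or the double mutant grf6 grf8, which carries mutations in the genes of 2 proteins of the 14-3-3 class, GRF6 and GRF8. Leaves of 24-day-old plants, grown for 12 days on MS plates and then on soil, were taken at 0 h, 2 h and 4 h of dehydration, with 4 libraries in each of the 6 groups. The labels name no allele of either mutated gene and do not say how many plants went into a library. They also do not say whether replicates came from separate cultures, so the p-values measure the spread between these samples only. Because each group with dehydration was also taken later than the 0 h group, dehydration and elapsed time cannot be told apart.

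NAC proteins are found only in plants. A conserved NAC domain at the start of the protein binds DNA and lets the proteins pair, and the rest of the protein, which varies between members, switches target genes on or off. ANAC019, ANAC055 and RD26 are close relatives known from responses to drought, abscisic acid (ABA, the hormone that closes stomata and prepares cells for drying) and jasmonate. NAP and ORE1 are central switches of leaf senescence, the ordered dismantling of a leaf, and ATAF1, NAC032 and NAC016 also act on that process. ATAF2 is known from wounding and defence, and NAC102 from germination under low oxygen. 14-3-3 proteins dock onto phosphorylated proteins, among them factors of hormone signalling, and alter where and how these act.

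Depth was similar across libraries, from 17.4 to 22.4 M counts. Levels are given as CPM, counts per M (mega) counts of the library, after TMM (trimmed mean of M values) scaling of library totals. GRF6 lay between 316 and 1803 CPM in the 12 WT libraries and between 43.7 and 388 CPM in the 12 grf6 grf8 libraries, and at each time every mutant library lay below every WT library. GRF8 did so at 0 h and 2 h, while at 4 h the WT libraries (68.0 to 129 CPM) and the mutant libraries (46.2 to 78.7 CPM) overlapped. Both transcripts were still measured in the mutant. The leaf label was checked against 6 mesophyll genes, whose summed level was 20560.0 to 31930.0 CPM at 0 h and 3658 to 18480 CPM at 4 h, while 4 root genes summed to at most 0.117 CPM and the root genes RHD6 and CASP1 were at 0 in every group. Summed over 5 floral genes the level was 1.08 to 17.84 CPM, highest in grf6 grf8 4 h replicate 1. Summed over 5 guard cell genes it was 33.45 to 108.9 CPM. Cell division genes set 5 libraries apart. Their score, the mean log2 CPM of 14 cell cycle genes, was 0.863 in WT 2 h replicate 4, 1.96 in WT 4 h replicate 4, 0.940 in grf6 grf8 0 h replicate 1, 2.12 in grf6 grf8 4 h replicate 1 and 1.70 in grf6 grf8 4 h replicate 2, and at most 0.219 in the others. In them, 6 to 9 of the 10 NAC transcripts lay below the whole range of those libraries of their group that had no high score. Counts of called genes among the 10 are therefore also given with these 5 libraries left out. Levels and correlations are given with all libraries only. How many of all genes lay below in these libraries was not counted, so the lower values are not shown to be particular to NAC genes.

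The sequences just upstream of the genes are shown for 4 of them because these genes rose most in WT at 4 h and their upstream regions differ in a motif of the ABA response. The motif is ACGTG, the core of the ABA-responsive element bound by the bZIP factors of ABA signalling, in capitals wherever it lies on either strand. Each window holds the 300 bases before the annotated gene start, 5′ to 3′ along the gene, from the RefSeq assembly TAIR10.1. ANAC019 is from chr1:19698483-19698782 (minus strand), NAC032 from chr1:29099539-29099838 (plus strand), RD26 from chr4:13709171-13709470 (minus strand) and ANAC055 from chr3:5234157-5234456 (plus strand).
ANAC019: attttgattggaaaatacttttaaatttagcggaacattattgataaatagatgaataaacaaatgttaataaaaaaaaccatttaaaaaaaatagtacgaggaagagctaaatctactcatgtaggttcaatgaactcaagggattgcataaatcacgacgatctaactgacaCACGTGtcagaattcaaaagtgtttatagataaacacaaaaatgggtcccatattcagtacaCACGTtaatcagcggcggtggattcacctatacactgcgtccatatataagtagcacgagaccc
NAC032: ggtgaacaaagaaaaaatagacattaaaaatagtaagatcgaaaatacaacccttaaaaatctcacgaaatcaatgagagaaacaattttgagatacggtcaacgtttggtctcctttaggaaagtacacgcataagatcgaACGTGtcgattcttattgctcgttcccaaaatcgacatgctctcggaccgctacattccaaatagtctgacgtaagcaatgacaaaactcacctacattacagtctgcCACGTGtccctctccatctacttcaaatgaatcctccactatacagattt
RD26: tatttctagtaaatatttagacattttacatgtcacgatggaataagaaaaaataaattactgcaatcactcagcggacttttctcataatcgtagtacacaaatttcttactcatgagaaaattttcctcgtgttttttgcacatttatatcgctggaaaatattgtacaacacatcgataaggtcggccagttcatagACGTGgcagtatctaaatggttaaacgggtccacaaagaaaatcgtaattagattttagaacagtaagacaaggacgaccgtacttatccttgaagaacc
ANAC055: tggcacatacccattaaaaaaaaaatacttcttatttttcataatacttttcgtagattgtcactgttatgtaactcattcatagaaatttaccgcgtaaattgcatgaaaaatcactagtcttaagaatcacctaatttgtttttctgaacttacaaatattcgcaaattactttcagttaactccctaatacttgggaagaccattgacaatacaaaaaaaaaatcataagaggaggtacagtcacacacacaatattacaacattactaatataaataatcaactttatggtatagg
ANAC019 and NAC032 each held 3 copies of the motif, counting both strands, of which 2 overlapped in the palindrome CACGTG, the G-box. RD26 held 1 copy, centred 98 bases before the start, and ANAC055 held none. NAP (window chr1:26121780-26122079, plus strand) held 2 copies, both in 1 G-box. The other 5 genes held none in this window, and the window of ATAF1 overlaps the neighbouring gene AT1G01715. ACGTG was thus present upstream of 4 of the 10 genes, against 25.6% of the 27443 protein-coding promoters searched in the same way, and CACGTG upstream of 3, against 7.09%. CCGAC, the core of the element bound by DREB factors, was found upstream of RD26 alone among the 10 (13.9% of promoters), TTGAC, the core of the W-box of WRKY factors, upstream of 5 (50.4%), and CATGTG, a motif bound by NAC proteins in the ERD1 promoter, upstream of none (13.1%). These are matches of letters in 1 window and no measure of binding.

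After dehydration 9 of the 10 NAC transcripts rose in both genotypes, by 1.44-fold for ATAF2 to 38.6-fold for ANAC019, and NAC016 did not pass the test at either time. All 9 were already called at 2 h. The comparisons at 2 h and 4 h share the 0 h libraries. The test was edgeR's quasi-likelihood test fitted to all 24 libraries, with p-values adjusted over the 18841 genes, and calls were made below an adjusted p of 0.05. In WT at 2 h against 0 h, 9 of 10 were called as risen, where 23.1% of all tested genes were. The 10 genes were chosen with earlier results known, so such shares describe the set and do not test it. At 4 h against 0 h in WT the count was again 9, against 27.8% of all genes. The median log2 fold change of the 10 genes was 2.54 at 2 h and 3.00 at 4 h in WT, beside 0.04 and 0.06 over all genes tested. In grf6 grf8, 9 were called at 2 h, against 23.2% of all genes, and 9 at 4 h, against 28.1%, with medians of 2.24 and 2.78 beside 0.01 and 0.07. The groups at 2 h and 0 h did not overlap in 9 of the 10 genes in either genotype, against 21.2% of genes in WT and 25.1% in grf6 grf8. At 4 h the count was 8 in both, against 22% and 24.3%. Without the 5 libraries with a high cell cycle score, which were left out after the data had been seen, 9 were called as risen at 2 h in WT (28.3% of all genes), 9 at 4 h (31.1%), and in grf6 grf8 10 at 2 h (27.6%) and 9 at 4 h (30.5%). In whole leaves, more cells expressing a gene and more RNA per cell cannot be told apart. Over the same 4 h, 4 of 6 mesophyll genes fell in each genotype, and 2 of 14 cell cycle genes rose in WT and 3 in grf6 grf8. With the 5 libraries with a high score left out, 10 of the 14 were tested, 0 rose in either genotype, and 3 fell in WT and 1 in grf6 grf8. With all libraries, of 4 floral genes tested 1 rose in WT and 2 in grf6 grf8 at 4 h. Of 5 guard cell genes 1 rose and 1 fell in each genotype. The part of any of these genes in the NAC values was not tested.

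**Figure D1:**
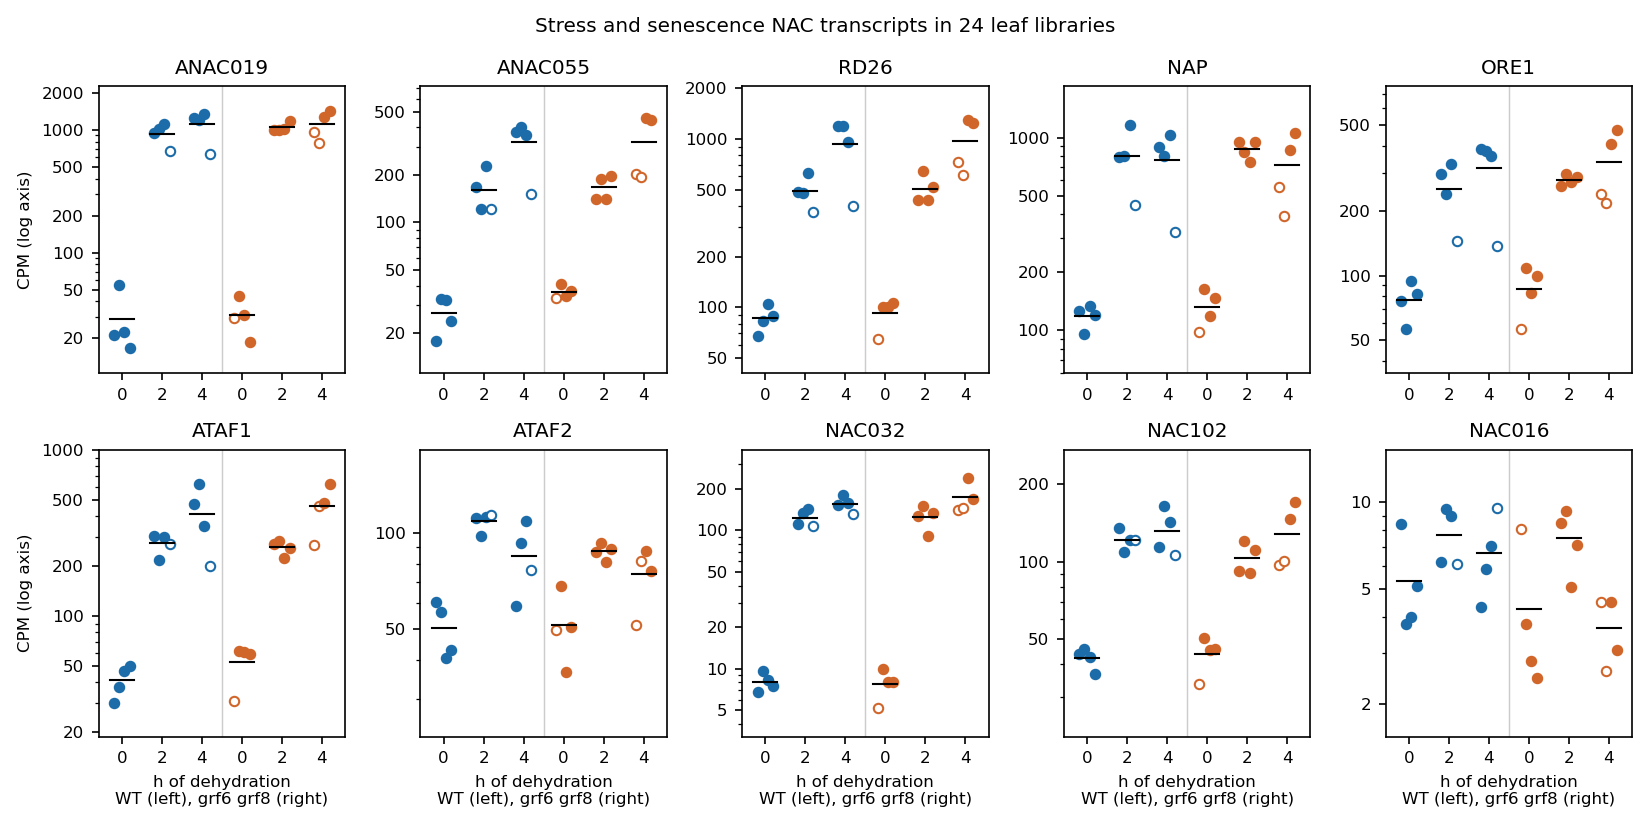
CPM (log axis) of each of the 10 NAC genes in each of the 24 libraries, by hours of dehydration, with WT in blue on the left of each panel and grf6 grf8 in orange on the right. Points are libraries, bars are group means, and open points are the 5 libraries with a high cell cycle score. All genes except NAC016 were higher at 2 h than at 0 h in every library of both genotypes.

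The relatives ANAC019, ANAC055 and RD26 come first. ANAC019 (AT1G52890, chr1:19696923-19698482, minus strand, TAIR10.1, 3 exons) encodes a drought- and ABA-induced factor first found as a protein that binds the ERD1 promoter. It held 21.5, 54.1, 22.5 and 16.7 CPM at 0 h, 942, 1009, 1105 and 669 CPM at 2 h, and 1253, 1192, 1340.0 and 641 CPM at 4 h in the WT libraries, and 29.1, 44.5, 31.1 and 18.8 CPM at 0 h, 992, 1004, 1009 and 1176 CPM at 2 h, and 967, 785, 1262 and 1421 CPM at 4 h in the grf6 grf8 libraries. Every dehydrated library lay far above every library at 0 h, and the 2 h and 4 h values overlapped. The log2 fold change was 5.02 (SE 0.378, adjusted p = 3.19e-09) at 2 h and 5.27 (SE 0.383, adjusted p = 1.11e-09) at 4 h in WT, and 5.08 (SE 0.379, adjusted p = 2.94e-09) and 5.17 (SE 0.381, adjusted p = 1.28e-09) in grf6 grf8. It rose most among the 10 genes, and its fold of 32.5 at 2 h in WT had a 95% interval of 18.8 to 56.0.

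ANAC055 (AT3G15500, chr3:5234457-5236196, plus strand, 3 exons), which acts with ANAC019 in jasmonate responses downstream of MYC2, rose in both genotypes. WT libraries had 18.0, 32.9, 32.6 and 24.0 CPM at 0 h, 166, 121, 226 and 122 CPM at 2 h, and 374, 398, 355 and 152 CPM at 4 h. Mutant libraries had 33.2, 40.6, 34.5 and 36.9 CPM at 0 h, 140.5, 188, 140.1 and 197 CPM at 2 h, and 202, 193, 453 and 444 CPM at 4 h. In both genotypes all values at 2 h lay above those at 0 h, and the highest values came at 4 h, but the 4 h libraries with a high cell cycle score stayed near the 2 h values. Its log2 fold change was 2.56 (SE 0.327, adjusted p = 2.69e-06) at 2 h and 3.57 (SE 0.341, adjusted p = 4.03e-08) at 4 h in WT, and 2.2 (SE 0.322, adjusted p = 1.54e-05) and 3.15 (SE 0.334, adjusted p = 1.52e-07) in grf6 grf8.

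RD26 (AT4G27410, chr4:13707192-13709170, minus strand, 3 annotated transcripts) was named for its induction by desiccation and acts in ABA signalling and in the loss of chlorophyll. WT leaves gave 67.2, 82.4, 105 and 89.2 CPM at 0 h, 482, 474, 628 and 368 CPM at 2 h, and 1191, 1192, 964 and 401 CPM at 4 h. Mutant leaves gave 65.0, 99.9, 100.1 and 107 CPM at 0 h, 434, 641, 435 and 517 CPM at 2 h, and 729.5, 609, 1288 and 1249 CPM at 4 h. No dehydrated library overlapped those at 0 h, and WT 4 h replicate 4 stood well below the other 3 of its group. The log2 fold change was 2.51 (SE 0.31, adjusted p = 1.86e-06) and 3.45 (SE 0.322, adjusted p = 3.15e-08) at 2 h and 4 h in WT, and 2.45 (SE 0.309, adjusted p = 2.55e-06) and 3.38 (SE 0.321, adjusted p = 3.7e-08) in grf6 grf8.

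With all 24 libraries the senescence switches NAP and ORE1 rose at 2 h and showed no further change that passed the test at 4 h. Without the 5 libraries with a high score ORE1 was called as risen at 4 h against 2 h, in grf6 grf8 alone. NAP was not called there. NAP (AT1G69490, chr1:26122080-26123514, plus strand, 3 exons) directs leaf senescence and switches on AAO3, an enzyme of ABA synthesis, and SAG113, a phosphatase gene. It had 126, 95.7, 134 and 119 CPM at 0 h, 790.1, 802, 1158 and 446 CPM at 2 h, and 892, 806, 1033 and 322 CPM at 4 h in WT. In grf6 grf8 it had 97.3, 164, 118 and 146 CPM at 0 h, 946, 839, 750.3 and 952 CPM at 2 h, and 556, 391, 866 and 1060.0 CPM at 4 h. The groups at 2 h and 4 h overlapped each other and lay above 0 h, with WT 4 h replicate 4 the lowest dehydrated library. NAP changed by a log2 fold of 2.75 (SE 0.345, adjusted p = 2.27e-06) at 2 h and 2.68 (SE 0.345, adjusted p = 2.01e-06) at 4 h in WT, and 2.73 (SE 0.345, adjusted p = 2.64e-06) and 2.45 (SE 0.341, adjusted p = 4.99e-06) in the mutant.

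ORE1 (AT5G39610, chr5:15858398-15859911, minus strand, 3 exons) promotes senescence and cell death with age and ethylene. The WT libraries read 76.1, 56.3, 94.3 and 82.2 CPM at 0 h, 297, 239.9, 331 and 144 CPM at 2 h, and 387, 381, 359.9 and 137 CPM at 4 h. The grf6 grf8 libraries read 56.5, 109, 83.1 and 99.0 CPM at 0 h, 259.7, 295, 272 and 287 CPM at 2 h, and 239, 217, 411 and 476 CPM at 4 h. All dehydrated libraries lay above all libraries at 0 h, and in WT replicate 4 was the lowest at 2 h and at 4 h. Its log2 fold change was 1.71 (SE 0.319, adjusted p = 0.000203) at 2 h and 2.03 (SE 0.322, adjusted p = 2.48e-05) at 4 h in WT, and 1.68 (SE 0.318, adjusted p = 0.00024) and 1.95 (SE 0.321, adjusted p = 3.5e-05) in grf6 grf8.

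ORE1 is the 1 gene of the 10 known as a target of the microRNA miR164, which guides the cutting of its mRNA in young leaves. The pairing is shown because it separates ORE1 from the other 9. The mature miR164 of MIR164a (chr2:19520770-19520790, plus strand) is written as DNA from RefSeq TAIR10.1 with its seed, bases 2 to 8, in capitals. Below it are the site in ORE1 (chr5:15858797-15858817, minus strand, coding sequence of exon 3 of 3) and, for comparison, the site in the known target NAC1 (chr1:20947142-20947162, minus strand, coding, exon 3 of 3), with mismatches to the miRNA's perfect complement in capitals.
miR164a: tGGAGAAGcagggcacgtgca
ORE1 site: CTcacgtgAcctgcttctccG
NAC1 site: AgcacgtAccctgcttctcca
Positions are counted from 1 at the 5′ end of the site, with the base of the perfect complement first. ORE1 differed at 4 positions, T1C, G2T, C9A and A21G, of which 1 was a G:U pair, and NAC1 at 2, T1A and G8A. The best match in each of the other 9 genes had 8 to 10 mismatches. MIR164a and MIR164b share the same mature sequence, and MIR164c differs at the last base. The levels of miR164 were not analysed here. Of 6 NAC genes known as miR164 targets, 4 were tested, and ORE1, ANAC079 and NAC1 rose in WT at 4 h, ANAC079 by a log2 fold change of 2.58 (SE 0.49, adjusted p = 0.000183) and NAC1 by 1.52 (SE 0.344, adjusted p = 0.000996) in the edgeR test. In grf6 grf8 3 of the 4 rose. Of all tested genes 27.8% rose in WT and 28.1% in grf6 grf8, and of 48 tested NAC genes outside the 10, 27 rose in each. A part of miR164 in these values was not tested. ANAC100 gave 0.03 with an adjusted p of 0.968 in edgeR and averaged 1.99 ± 0.893 CPM at 0 h (SD, n = 4), and CUC1 and CUC2, genes of shoot boundaries, had at most 12 and 6 counts in a library and were not tested.

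ATAF1, ATAF2, NAC032 and NAC102 belong to a closely related branch of the family, and they differed widely in size of response. ATAF1 (AT1G01720, chr1:267993-269819, plus strand, 3 exons) responds to drought and wounding, switches on ORE1 and the ABA gene NCED3, and holds back GLK1, a gene of chloroplast upkeep. WT libraries held 30.1, 37.5, 47.0 and 50.4 CPM at 0 h, 303, 219, 302 and 274 CPM at 2 h, and 471, 630.1, 348 and 201 CPM at 4 h. Those of grf6 grf8 held 30.7, 61.8, 60.8 and 59.4 CPM at 0 h, 273, 284, 225 and 258 CPM at 2 h, and 270.3, 462, 484 and 624 CPM at 4 h. The groups at 0 h stood apart from all dehydrated ones, and the 4 h groups were the most spread. Its log2 fold change was 2.73 (SE 0.308, adjusted p = 5.84e-07) at 2 h and 3.32 (SE 0.316, adjusted p = 3.86e-08) at 4 h in WT, and 2.29 (SE 0.302, adjusted p = 4.43e-06) and 3.11 (SE 0.312, adjusted p = 7.71e-08) in the mutant.

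NAC032 (AT1G77450, chr1:29099839-29101759, plus strand, 3 exons), a stress-induced factor also linked to senescence and sugar starvation, started lowest of the 9 that rose. It had 6.83, 9.66, 8.23 and 7.56 CPM at 0 h, 112, 134, 143 and 107 CPM at 2 h, and 154, 180.0, 157 and 132 CPM at 4 h in WT. In grf6 grf8 it had 5.17, 10.02, 8.02 and 8.08 CPM at 0 h, 127, 149, 91.7 and 133 CPM at 2 h, and 141, 145, 240.1 and 169 CPM at 4 h. All dehydrated libraries lay far above all libraries at 0 h. The log2 fold change was 3.94 (SE 0.22, adjusted p = 9.73e-11) and 4.27 (SE 0.223, adjusted p = 1.39e-11) at 2 h and 4 h in WT, and 4.00 (SE 0.221, adjusted p = 1.03e-10) and 4.48 (SE 0.226, adjusted p = 7.37e-12) in grf6 grf8, which had the smallest adjusted p among the 10 genes.

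NAC102 (AT5G63790, chr5:25526509-25528281, minus strand, 2 annotated transcripts) rose less. WT values were 44.1, 45.8, 42.8 and 36.9 CPM at 0 h, 135, 109, 122 and 122 CPM at 2 h, and 114, 164, 143 and 107 CPM at 4 h. Mutant values were 33.6, 50.5, 45.6 and 45.9 CPM at 0 h, 92.5, 121, 90.5 and 111 CPM at 2 h, and 96.8, 101, 147 and 170.3 CPM at 4 h. The 0 h groups again lay wholly below the rest. In the edgeR test its log2 fold change was 1.53 (SE 0.181, adjusted p = 1.15e-06) at 2 h and 1.64 (SE 0.182, adjusted p = 3.11e-07) at 4 h in WT, and 1.24 (SE 0.18, adjusted p = 1.41e-05) and 1.55 (SE 0.181, adjusted p = 5.55e-07) in grf6 grf8.

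ATAF2 (AT5G08790, chr5:2858849-2860558, minus strand, 3 exons), which is wound-induced and represses pathogenesis-related genes, had the smallest rise of the 9, with its highest mean at 2 h. At 4 h against 2 h ATAF2 was not called. In edgeR it gave a log2 fold change of -0.37 (adjusted p = 0.302) in WT and -0.24 (adjusted p = 0.436) in grf6 grf8. It read 60.6, 56.5, 40.5 and 42.9 CPM at 0 h, 111, 98.1, 112 and 114 CPM at 2 h, and 59.1, 92.9, 109 and 76.7 CPM at 4 h in WT. In the mutant it read 49.6, 68.3, 36.7 and 50.5 CPM at 0 h, 87.1, 93.2, 81.0 and 89.2 CPM at 2 h, and 51.4, 81.4, 87.6 and 75.6 CPM at 4 h. The 2 h groups lay above 0 h without overlap, while at 4 h a library of each genotype lay within the range of 0 h. Its log2 fold change was 1.12 (SE 0.198, adjusted p = 0.00012) at 2 h and 0.75 (SE 0.197, adjusted p = 0.00325) at 4 h in WT, and 0.77 (SE 0.197, adjusted p = 0.0032) and 0.53 (SE 0.196, adjusted p = 0.0286) in grf6 grf8. The mutant value at 4 h lost its call in edgeR without grf6 grf8 0 h replicate 3 (0.37, adjusted p = 0.154), and likewise without 0 h replicates 1 or 4 or 4 h replicates 2, 3 or 4 (adjusted p from 0.06 to 0.103).

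NAC016 (AT1G34180, chr1:12448543-12451287, plus strand, 4 annotated transcripts), a senescence factor that switches on NAP and holds back the ABA factor gene ABF2, stayed low and did not follow the others. Its 47 to 216 counts per library gave 8.39, 3.79, 4.01 and 5.11 CPM at 0 h, 6.21, 9.48, 8.99 and 6.13 CPM at 2 h, and 4.34, 5.86, 7.06 and 9.53 CPM at 4 h in WT. In grf6 grf8 they gave 8.06, 3.79, 2.82 and 2.46 CPM at 0 h, 8.49, 9.34, 5.08 and 7.11 CPM at 2 h, and 4.5, 2.6, 4.51 and 3.08 CPM at 4 h. Groups overlapped throughout WT, and in the mutant at 0 h the library with a high cell cycle score, replicate 1, was far above the other 3. Its log2 fold change was 0.53 (SE 0.345, adjusted p = 0.227) at 2 h and 0.33 (SE 0.345, adjusted p = 0.446) at 4 h in WT, and 0.81 (SE 0.348, adjusted p = 0.0655) and -0.22 (SE 0.351, adjusted p = 0.621) in grf6 grf8, none of them called by edgeR. Without the 5 libraries with a high score the rise at 2 h in grf6 grf8 was called, with a log2 fold change of 1.31 and an adjusted p of 0.00161 in edgeR, where 27.6% of all genes rose. Leaving out grf6 grf8 0 h replicate 1 alone gave 1.31 (adjusted p = 0.00327), and leaving out 2 h replicate 3 alone gave 0.95 (adjusted p = 0.0458), in edgeR. Its next gene, ANAC017, starts 117 bases after NAC016 ends on the same strand, so reads near the border could be assigned to either.

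**Figure D2:**
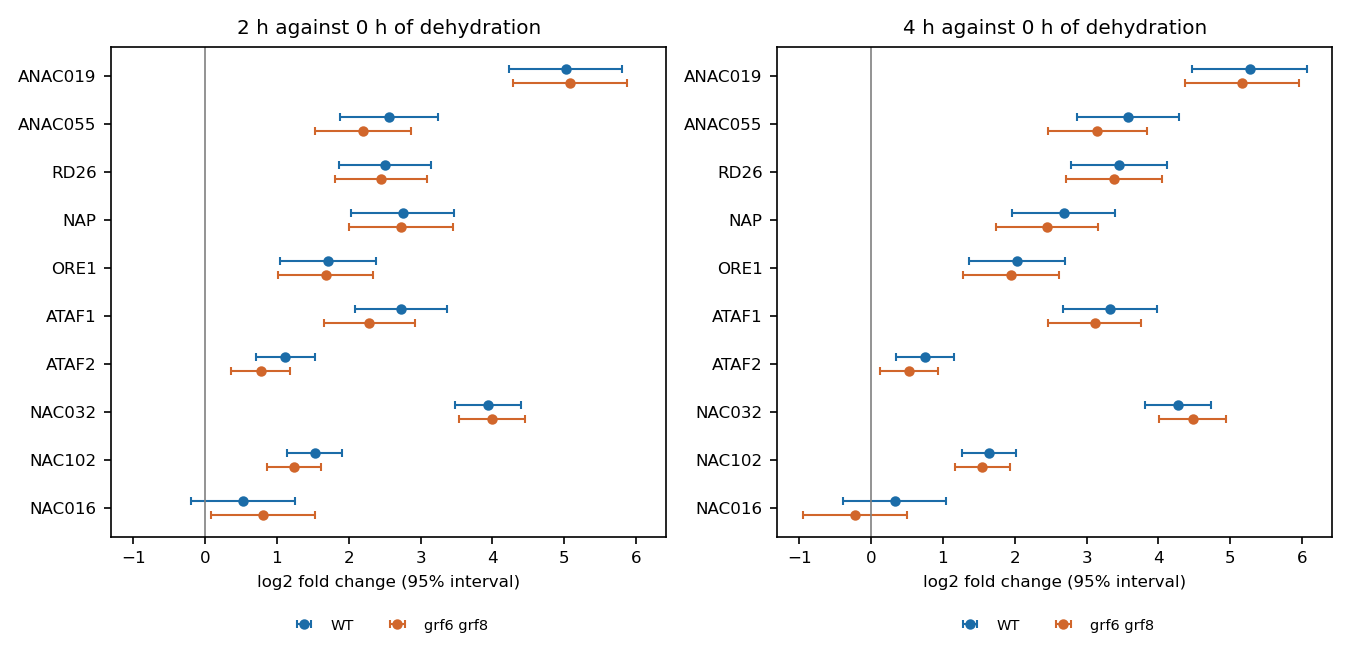
Log2 fold change against 0 h of the 10 NAC genes at 2 h (left) and 4 h (right) of dehydration, in WT (blue) and grf6 grf8 (orange), with bars for the 95% interval from the edgeR fit. ANAC019 lies highest at 5.02 to 5.27, ATAF2 lowest of those called at 0.53 to 1.12, and every interval of NAC016 except that of grf6 grf8 at 2 h includes 0.

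Libraries at 4 h were also compared with those at 2 h. In WT none of the 10 genes was called as risen at 4 h against 2 h, where 2.57% of all genes were, although ANAC055 had a log2 fold change of 1.01 (SE 0.31, adjusted p = 0.0638) and RD26 of 0.94 (SE 0.295, adjusted p = 0.0694) in edgeR's quasi-likelihood test. At an unadjusted p under 0.05, 2 of the 10 genes passed, beside 3793 of all 18841 genes (20.1%), and DESeq2 called the same 2, against 4.73% of all genes. In grf6 grf8, 2 of 10 were called as risen, against 6.34% of all genes, ANAC055 with 0.96 (SE 0.309, adjusted p = 0.0471) and RD26 with 0.93 (SE 0.295, adjusted p = 0.0423). ATAF1 gave 0.59 (SE 0.289, adjusted p = 0.258) in WT and 0.82 (SE 0.29, adjusted p = 0.0666) in grf6 grf8. NAC016 in grf6 grf8 gave -1.03 (SE 0.35, adjusted p = 0.0581), and NAP gave -0.07 (SE 0.324, adjusted p = 0.936) and -0.28 (SE 0.324, adjusted p = 0.606). No gene of the 10 had all its 4 h libraries above all its 2 h libraries, in either genotype, against 3.56% of genes in WT and 8.7% in grf6 grf8. In grf6 grf8 NAC016 alone had all its 4 h libraries below all its 2 h libraries, as 7.92% of genes did, and in WT 0 of the 10 did, against 3.6% of genes.

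The values at 4 h against 2 h moved with the libraries that had a high cell cycle score, 3 of which are 4 h libraries. In WT 4 h replicate 4, 8 of the 10 genes lay below the other 3 libraries, at a median of 46.2% of their mean, and in grf6 grf8 4 h replicates 1 and 2, 9 of the 10 lay below the other 2, at medians of 59.4% and 61.1%. In WT 2 h replicate 4 and grf6 grf8 0 h replicate 1 the counts were 6 and 7 of 10, with medians of 72.9% and 69.5%. The share of all genes lying below in each of these libraries was not counted. Without the 5 libraries, a choice made after seeing the data, edgeR called 3 genes as risen at 4 h against 2 h in WT, against 11.3% of all genes: ANAC055 (log2 fold change 1.16, SE 0.224, adjusted p = 0.00213), RD26 (1.1, SE 0.174, adjusted p = 0.000552) and ATAF1 (0.84, SE 0.211, adjusted p = 0.0102). In grf6 grf8 it then called 6 as risen, against 16.8%, and 1 as fallen, against 14.4%. Those that rose were ANAC055 (1.46, adjusted p = 0.000225), RD26 (1.36, adjusted p = 6.08e-05), ATAF1 (1.13, adjusted p = 0.00111), NAC032 (0.74, adjusted p = 0.00522), ORE1 (0.71, adjusted p = 0.00436) and NAC102 (0.65, adjusted p = 0.00438), and NAC016 fell (-0.95, adjusted p = 0.0452). In that fit ANAC019, NAP and ATAF2 were not called in either genotype, with 95% intervals of -0.38 to 1.04, -0.35 to 0.38 and -0.75 to 0.19 in WT and -0.35 to 1.14, -0.21 to 0.57 and -0.57 to 0.43 in grf6 grf8. The grf6 grf8 4 h group has 2 libraries in it. Leaving out WT 4 h replicate 4 alone gave the same 3 calls in WT, and leaving out WT 2 h replicate 3 gave 1, ANAC055 (1.23, adjusted p = 0.035 in edgeR). In grf6 grf8 the calls of ANAC055 and RD26 were both lost without 2 h replicate 1, 3 or 4 or 4 h replicate 3 or 4, down to log2 fold changes of 0.73 and 0.75, and ANAC055 also without 2 h replicate 2. Leaving out 4 h replicate 1 added ATAF1 (1.00, adjusted p = 0.0272), and leaving out 2 h replicate 3 left NAC016 alone, as fallen (-1.21, adjusted p = 0.0431). The shares of all genes called with single libraries left out are not given here, so those counts cannot be read as particular to NAC genes. Whether the cell cycle score has a part in these values was not tested.

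**Figure D3:**
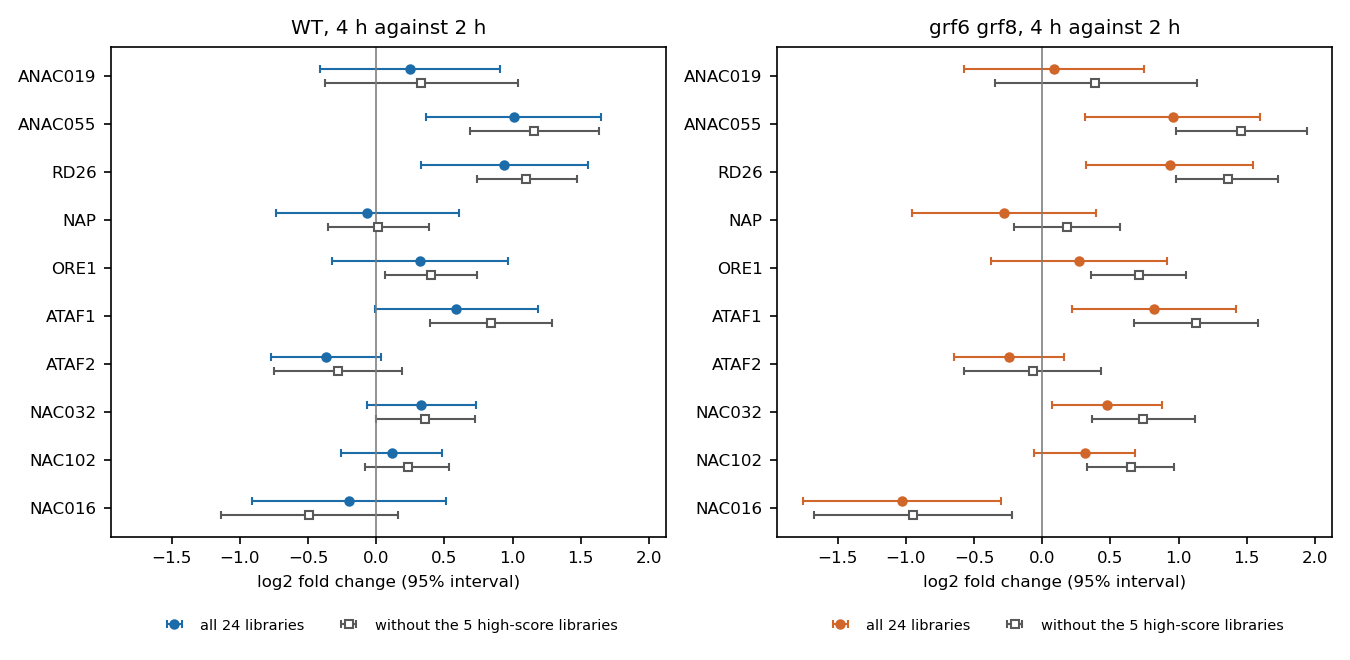
Log2 fold change of 4 h against 2 h for the 10 NAC genes in WT (left) and grf6 grf8 (right), with 95% intervals, from all 24 libraries (filled) and without the 5 libraries with a high cell cycle score (open squares). The points of ANAC055, RD26 and ATAF1 lie to the right of 0 in both fits, though the interval of ATAF1 in WT with all libraries, -0.01 to 1.19, includes 0, and NAP and ANAC019 have intervals that include 0 in both.

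The double mutant was next compared with WT at each time. None of the 10 NAC genes was called between grf6 grf8 and WT at 0 h, 2 h or 4 h, averaged over the 3 times, or in the difference of the 2 h or 4 h response, and every adjusted p was 1 in edgeR's quasi-likelihood test. Of all genes, 0.0265% were called at 0 h, 0.0212% at 2 h, 0.0159% at 4 h and 0.0849% averaged over the times. For the difference of the response it was 0.00531% at 2 h and 0.00531% at 4 h. DESeq2 called 0 of the 10 genes in each of these comparisons too. Averaged over the times, the 9 genes other than NAC016 had log2 fold changes of -0.16 to 0.17, and their 95% intervals ran from 0.762-fold for ATAF2 to 1.46-fold for ANAC055. At single times the intervals of these 9 were wider, from 0.676- to 2.11-fold at 0 h, 0.607- to 1.78-fold at 2 h and 0.591- to 1.69-fold at 4 h. For the difference of response between genotypes they ran from 0.408- to 2.00-fold at 2 h and 0.399- to 1.79-fold at 4 h. These bounds join the lowest and the highest limit over the 9 genes. For a single gene, only differences inside its own interval are compatible with the data, such as 0.821- to 1.1-fold for NAC102 averaged over the times.

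Of the 10 genes NAC016 had the largest difference between the genotypes at 4 h, though it was not called. At 4 h its level was 3.67 ± 0.98 CPM in grf6 grf8 and 6.7 ± 2.19 CPM in WT (SD, n = 4), and 2 mutant libraries lay within the WT range. The log2 fold change was -0.87 with a 95% interval of -1.60 to -0.14, an unadjusted p of 0.0217 and an adjusted p of 1 in edgeR, so it failed the correction over all genes. With all 24 libraries no other gene of the 10 had an unadjusted p under 0.05 in a comparison of the genotypes, and of all genes 731, or 3.88%, had one at 4 h. At 0 h and 2 h the log2 fold changes were -0.32 and -0.04, and averaged over the times -0.41 with an unadjusted p of 0.0548 in edgeR. Without the libraries with a high score NAC016 gave -0.85 at 0 h (95% interval -1.48 to -0.21, adjusted p = 0.481), -0.58 at 4 h (-1.34 to 0.17, adjusted p = 0.998) and -0.52 averaged over the times (-0.90 to -0.13, adjusted p = 0.46) in edgeR. In that fit the intervals of ANAC055 (0.45, 0.01 to 0.90) and ATAF1 (0.54, 0.12 to 0.95) at 0 h also left out 0. With the score as covariate those of ANAC055 at 0 h (0.54, 0.19 to 0.90), NAC102 at 2 h (-0.28, -0.54 to -0.01), and RD26 (0.38, 0.09 to 0.67) and ORE1 (0.42, 0.08 to 0.76) at 4 h did so. NAC016 at 4 h gave -0.95 (-1.64 to -0.25) there. Averaged over the times, 4 of the 10 intervals left out 0 with the covariate and 1 with the high-score libraries removed, as did 1 of the 10 response differences at 2 h in each. The share of all genes whose intervals left out 0 in these fits was not counted. The counts can therefore not be read as particular to the NAC genes. None of these differences was called in edgeR, with a smallest adjusted p among the 10 genes of 0.293 in the covariate fit and 0.46 in the other.

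**Figure D4:**
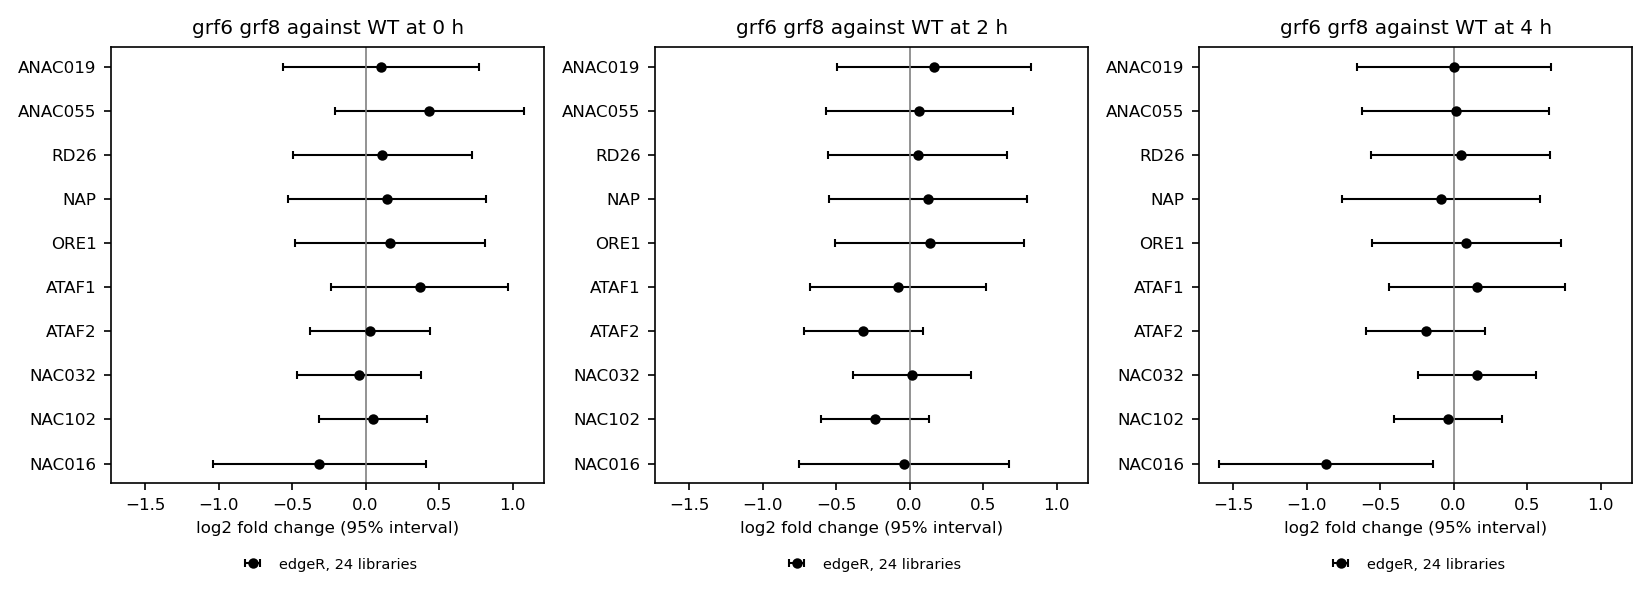
Log2 fold change of grf6 grf8 against WT for the 10 NAC genes at 0 h, 2 h and 4 h, with 95% intervals from the edgeR fit to 24 libraries. All intervals include 0 except that of NAC016 at 4 h, which runs from -1.60 to -0.14 and was not called after adjustment.

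Levels between genes were compared in the deposited FPKM, fragments per kilobase of transcript scaled to library size, which allow for gene length. In WT at 0 h NAP was highest at 109 ± 13.8 FPKM (SD, n = 4), above ORE1 at 65.7 ± 11.6 and RD26 at 59.1 ± 7.51 FPKM, which overlapped. ATAF2, NAC102, ATAF1, ANAC019 and ANAC055 followed in that order, each overlapping the next, and NAC032 at 7.33 ± 1.11 and NAC016 at 2.7 ± 1.17 FPKM were apart from the rest and from each other. At 2 h ANAC019 at 736 ± 94.7 and NAP at 728 ± 219.8 FPKM led and could not be separated, RD26 came next at 318 ± 48.9 FPKM without overlap, and NAC016 stayed last at 3.88 ± 0.778 FPKM. At 4 h ANAC019 (829 ± 139 FPKM), NAP (656 ± 208 FPKM) and RD26 (561 ± 164 FPKM) led, each overlapping the next. ANAC019, below the middle of the order at 0 h, was thus in the leading pair at 2 h. The mutant had the same leading genes, NAP at 0 h with 119 ± 24.5 FPKM and ANAC019 at 2 h and 4 h with 794 ± 70.8 and 852 ± 108 FPKM, and NAC016 was last there too.

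**Figure D5:**
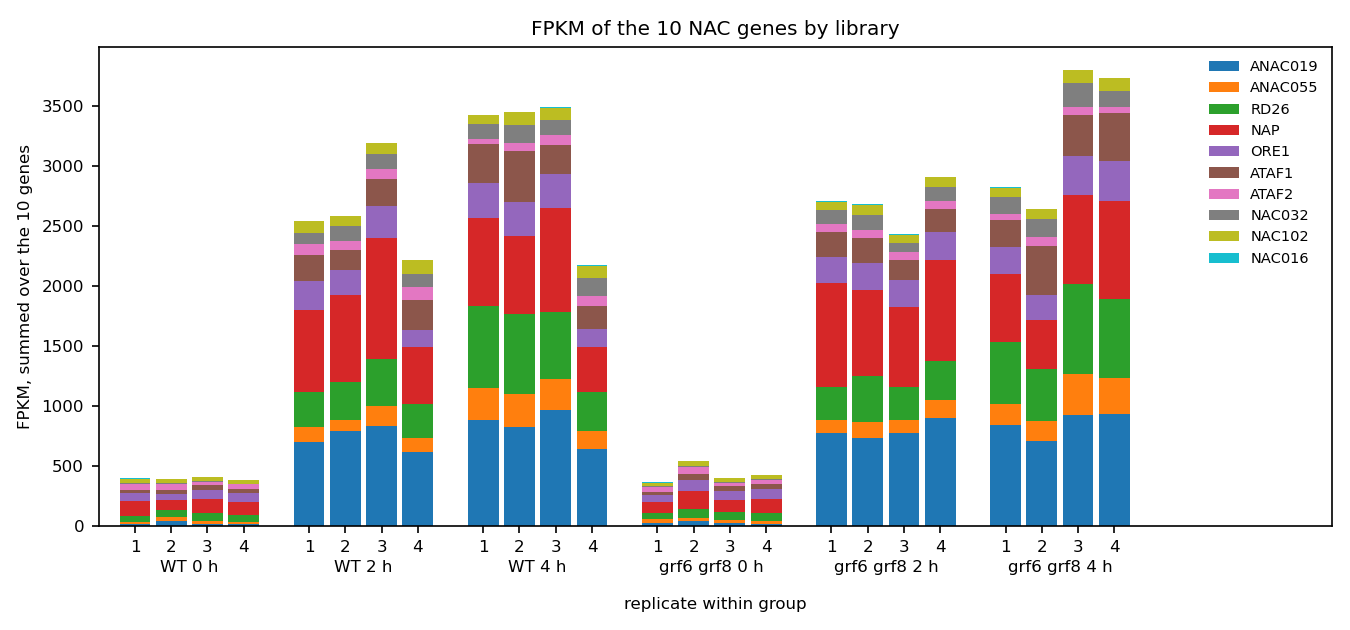
FPKM of the 10 NAC genes, stacked, in each of the 24 libraries by group and replicate. The mean sum rises from 394 FPKM in WT at 0 h to 2636 at 2 h and 3138 at 4 h, ANAC019 and NAP make up much of it after dehydration, and WT 4 h replicate 4 is the lowest 4 h library.

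The 10 genes also made up most of the summed FPKM of the NAC family after dehydration. The annotation named 100 of the genes in the files as NAC genes. By summed FPKM, the 10 genes held 39.6% ± 2.85 in WT at 0 h, 73.4% ± 1.47 at 2 h and 75.1% ± 4.83 at 4 h (SD, n = 4), and 42.7% ± 3.54, 73.8% ± 1.06 and 77.0% ± 1.82 in grf6 grf8. Their sum rose from 394 ± 10.7 FPKM to 2636 ± 408 and 3138 ± 642 FPKM in WT, while that of the other 90 NAC genes went from 604 ± 76.0 to 964 ± 212 and 1010.0 ± 80.7 FPKM. ANAC019 alone went from 2.36% ± 1.64 of all NAC FPKM in WT to 20.55% ± 1.43 at 2 h and 19.98% ± 0.859 at 4 h. Of the other 90 genes 48 were tested, and in WT at 4 h 27 rose and 3 fell, with a median log2 fold change of 0.96. In grf6 grf8 at 4 h the counts were 27 and 3, with a median of 0.90, and all 18841 tested genes had medians of 0.06 and 0.07, with 27.8% risen and 22.2% fallen in WT and 28.1% and 23.1% in grf6 grf8. The other NAC genes with the smallest adjusted p in edgeR in WT at 4 h were ANAC013, ANAC047, ANAC053 and NTM1, a membrane-bound factor of cell division, the last with 2.15 (SE 0.315, adjusted p = 9.99e-06).

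A list of 17 other NAC genes of stress or senescence was set beside them. Of 16 tested, 10 rose and 1 fell in WT at 4 h, with a median log2 fold change of 0.91, and 10 and 1 in grf6 grf8, with 0.93. Without the 5 libraries with a high score 17 were tested, and 10 rose and 2 fell in WT, and 9 rose and 1 fell in grf6 grf8. With all libraries 27.8% of all tested genes rose and 22.2% fell in WT, and 28.1% and 23.1% in grf6 grf8. Of the 18581 genes tested in both fits, with and without the 5 libraries, 5796 rose and 5956 fell in WT without them. In grf6 grf8 these counts were 5675 and 5552. ANAC013, a membrane-bound factor that answers to mitochondrial stress, rose by a log2 fold change of 2.70 (SE 0.231, adjusted p = 9.4e-09) in WT and 2.69 (SE 0.231, adjusted p = 9.43e-09) in grf6 grf8. ANAC047, which bends leaves upward in waterlogged plants, rose by 3.19 (SE 0.377, adjusted p = 7.17e-07) and 2.67 (SE 0.369, adjusted p = 4.5e-06) in edgeR. ANAC053, a membrane-tethered factor of drought-induced senescence, rose by 1.55 (SE 0.219, adjusted p = 6.36e-06) and 1.84 (SE 0.221, adjusted p = 7.95e-07). NTL6, which is released from membranes in the cold, rose by 0.95 (SE 0.142, adjusted p = 1.33e-05) and 0.94 (SE 0.142, adjusted p = 1.29e-05).

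Neighbours on the chromosome were looked at for 3 of the 10 genes, which have a NAC gene beside them. ANAC018 lies 6333 bases from ANAC019 on the same strand, with no gene between, and rose by a log2 fold change of 0.88 (SE 0.262, adjusted p = 0.00842) in WT at 4 h in edgeR, from 22.5 ± 1.26 to 41.4 ± 13.6 CPM (SD, n = 4), where ANAC019 rose by 5.27. ANAC056 lies 7235 bases from ANAC055, with 1 gene between, and fell, with a log2 fold change of -2.09 (SE 0.343, adjusted p = 3.79e-05), from 26.7 ± 6.83 to 6.29 ± 1.08 CPM, while ANAC055 rose. In grf6 grf8 ANAC056 gave -2.65 (SE 0.353, adjusted p = 2.93e-06) in the same test. ANAC017, the neighbour of NAC016 and an endoplasmic reticulum-bound factor, gave -0.26 (SE 0.134, adjusted p = 0.108) in WT and -0.25 (SE 0.134, adjusted p = 0.129) in the mutant and was not called. The difference between neighbours was not tested.

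Genes known to act downstream of these factors mostly rose too. Of 14 tested genes of senescence, such as those of chlorophyll breakdown, 11 rose and 2 fell in WT at 4 h, with a median log2 fold change of 2.49, and 9 rose and 2 fell in grf6 grf8, with 1.89. The shares over all genes were 27.8% risen and 22.2% fallen in WT, and 28.1% and 23.1% in grf6 grf8. SAG113, the phosphatase gene under NAP, rose by 7.90 (SE 0.53, adjusted p = 3.47e-10) in WT and 7.38 (SE 0.517, adjusted p = 6.76e-10) in grf6 grf8, and SGR1, which starts chlorophyll breakdown, by 3.58 (SE 0.392, adjusted p = 2.52e-07) and 3.44 (SE 0.389, adjusted p = 3.52e-07) in edgeR. Both genes that fell, GLK1 and GLK2, drive chloroplast development, with -2.09 (SE 0.296, adjusted p = 6.52e-06) and -1.41 (SE 0.193, adjusted p = 4.57e-06) in WT and -1.67 (SE 0.292, adjusted p = 6.85e-05) and -1.41 (SE 0.193, adjusted p = 3.96e-06) in grf6 grf8 at 4 h in edgeR. Without the 5 libraries with a high cell cycle score 12 rose and 2 fell in WT and 10 rose and 2 fell in grf6 grf8. Beside them, 5796 of the 18581 genes tested in both fits rose and 5956 fell in WT, and 5675 and 5552 in grf6 grf8. At 2 h in WT, with all libraries, neither GLK gene was called, with -0.63 (adjusted p = 0.081) and -0.34 (adjusted p = 0.153) in edgeR.

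Of 10 genes known as targets of ANAC019, ANAC055, RD26 or ATAF1 in stress and hormone pathways, 9 rose and 0 fell in WT at 4 h, with a median of 2.24, and 8 and 0 in grf6 grf8, with 2.06, beside 27.8% of all genes risen in WT and 28.1% in grf6 grf8. Leaving out the 5 libraries with a high score gave 9 and 0 in both genotypes. Of 18581 genes tested in both fits 5796 rose and 5956 fell without these libraries in WT, and 5675 and 5552 in grf6 grf8. GLYI7, a glyoxalase gene, rose by a log2 fold change of 4.54 (SE 0.486, adjusted p = 1.97e-07) in WT, NCED3, the ABA synthesis gene, by 2.41 (SE 0.282, adjusted p = 6.1e-07), VSP1, a jasmonate-induced storage protein gene, by 5.40 (SE 0.78, adjusted p = 8.56e-06) and SAGT1, which ties salicylate to sugar, by 2.14 (SE 0.333, adjusted p = 2.05e-05) in edgeR. ABCG40, an ABA importer gene, gave 0.40 with an adjusted p of 0.686. In grf6 grf8 the same 4 named genes gave 3.84 (SE 0.47, adjusted p = 9.59e-07), 1.77 (SE 0.276, adjusted p = 1.87e-05), 6.25 (SE 0.816, adjusted p = 2.24e-06) and 2.35 (SE 0.336, adjusted p = 6.76e-06). Whether any target followed a given NAC factor was not tested. No gene of either list was called between genotypes at 4 h, where edgeR called 0.0159% of all genes.

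Of 14 regulators known to act on the 10 genes, 6 rose and 3 fell at 4 h in WT, with a median log2 fold change of 0.23, and 6 and 3 in grf6 grf8, with 0.16, where of all genes 27.8% rose and 22.2% fell in WT and 28.1% and 23.1% in grf6 grf8. The counts of regulators became 7 and 3, and 6 and 4, without the 5 libraries with a high score. There 5796 of the 18581 genes tested in both fits rose and 5956 fell in WT, and 5675 and 5552 in grf6 grf8. The bZIP genes ABF2, ABF3 and ABI5, whose proteins bind ACGTG in ABA signalling, rose by 4.07 (SE 0.245, adjusted p = 8.64e-11), 3.48 (SE 0.282, adjusted p = 4.52e-09) and 4.06 (SE 0.449, adjusted p = 2.95e-07) in WT in edgeR, and ZFHD1, a zinc finger homeodomain gene that acts on ERD1 with NAC proteins, by 6.34 (SE 1.03, adjusted p = 3.22e-05). EIN2 (-0.57, adjusted p = 0.00258) and EIL1 (-0.60, adjusted p = 0.0232), which pass on the ethylene signal to ORE1, and PIF4 (-1.01, adjusted p = 0.000297), a factor of dark-induced senescence, fell, and EIN3 was not called (0.09, adjusted p = 0.743).

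The levels of 9 of the 10 genes moved together across libraries. Over the 24 libraries the log2 CPM of the 9 genes other than NAC016 correlated pairwise with Pearson values of 0.664 to 0.989 and a median of 0.946 over 36 pairs. These points share 6 groups, and the deviations from group means gave 0.0488 to 0.947 with a median of 0.581. In deviations ATAF2 gave 0.0488 with RD26 to 0.517 with NAC102. The deviations include the 5 libraries with a high score, in which most of these genes were low at once. They were not computed without those libraries or over all genes, so the values are not shown to be particular to these genes. NAC016 gave 0.099 to 0.502 with the other 9, and -0.614 to 0.193 in deviations. Among genes outside the 10, the most alike by Pearson's r of log2 CPM over the 24 libraries were SAG113 (0.993), RD20 (0.991) and AT1G17940 (0.990) for ANAC019. For NAC032 they were EDL3 (0.993), RD20 (0.992) and SAG113 (0.992), and for RD26 TMAC2 (0.994), AT3G54680 (0.993) and AT5G04760 (0.993). ANAC055 was most like TMAC2, AT5G13760 and AT2G25460 (0.988 to 0.990), NAP like MBF1C, AT3G17800 and CAX7 (0.984 to 0.985), and ORE1 like ALDH7B4, RAB1C and AT1G04780 (0.985 each). ATAF1 was most like FBS3, AT4G25672 and ERF8 (0.984 to 0.986), and NAC102 like TOPP9, WIN2 and PYL7 (0.972 to 0.975). Likeness was weaker for ATAF2, with BSK7, AT5G59450 and AT1G09970 (0.910 to 0.920). NAC016 was most like EDS1, WAK1 and AT4G26910 (0.853 to 0.863). These values are descriptions over libraries that share groups and depth.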

How the data were processed

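Polyadenylated RNA of 24 libraries was sequenced. The expected counts per gene were estimated by the authors and deposited as whole numbers, and the FPKM in the same deposited tables are the authors' values. Per the submitters' processing notes the build was TAIR10 and the tools included RSEM, StringTie 1.3.1, HISAT2, Bowtie2 2.2.8 and, for reads, fastp 0.18.0, beside edgeR and DESeq2, with no role stated. How reads shared by similar family members were assigned is not given in the sources used here, so close relatives could share reads, and the kit is not stated to mark strand.

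Counts were filtered with filterByExpr on the 6 groups and scaled by TMM, and a mean per group was fitted with edgeR 4.0.16 in R 4.3.3, with 12 comparisons tested two-sided and Benjamini-Hochberg adjustment over 18841 genes. Alternatives used DESeq2 1.42.0, other filters and scaling, the replicate number as a block, only the groups compared and each library left out. Same-numbered libraries deviated from their group means together, with a correlation over 0.1 in every pair, between WT and grf6 grf8 at 0 h (4 pairs, 0.191 to 0.576). In the other pairs of groups compared, at most 3 of 4 did. Between the 0 h groups some pairs with different numbers correlated too, up to 0.377 for WT replicate 4 and grf6 grf8 replicate 3. The pattern comes from the data, not the labels, and does not settle whether libraries were paired. After the data were seen, the 5 libraries whose score of cell cycle genes passed 0.5 were left out, or the score was a covariate.

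The members and gene lists were chosen with earlier results of these data known. Named are the 10 genes, neighbouring NAC genes, up to 4 genes of a list with the smallest adjusted p in WT at 4 h, and the 3 most alike genes per member. ABCG40, EIN2, EIL1, EIN3 and PIF4 were named after their values were seen. On simulated counts for WT at 2 h against 0 h over 18841 genes, 36% of genes changed 2-fold and 74% of those changed 4-fold were recovered, and for grf6 grf8 against WT at 4 h 46.9% and 79.6%. Only 50 genes were changed at each fold of 1.5, 2, 4 and 8. In the data 4346 genes rose and 3617 fell in WT at 2 h. Because the adjustment depends on how many genes change, the recovery simulated for WT need not hold for that comparison. Gene positions are from the TAIR10.1 annotation, since the files hold none.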

Additional observations from a re-analysis of the deposited data

Results flagged for a closer look

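In each group of 4 libraries the CPM of each of the 10 genes was checked for 1 library far from the other 3 by Dixon's test, in 60 groups in all. Chance alone gives about 1 such group in 20. In 6 groups a library stood out. ANAC019 was high in WT 0 h replicate 2 (54.1 CPM) and in grf6 grf8 2 h replicate 4 (1176 CPM). RD26 and ATAF1 were both low in grf6 grf8 0 h replicate 1 (65.0 and 30.7 CPM), and ORE1 was low in WT 4 h replicate 4 (137 CPM). Both of these libraries had a high cell cycle score. ATAF2 was low in WT 2 h replicate 2 (98.1 CPM). No difference of response between genotypes passed the test for any of the 10 genes.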

How the results depend on the processing

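The count of 9 genes risen at 2 h and at 4 h against 0 h held in WT under every alternative, and lay between 8 and 10 in grf6 grf8. No gene was called between genotypes or in a difference of response under any alternative, and no called value changed sign. For single genes, 2173 values kept their side of the threshold, 32 became called and 25 lost their call. The counts for 4 h against 2 h were the ones that moved, and the cause was not tested. In WT, where 0 were called, the stricter filter and DESeq2 gave 2, the cell cycle score as covariate 2, leaving out the 5 libraries 3, and leaving out single libraries 0 to 3. In grf6 grf8, where 2 were called, no low-count filter, fitting only the groups compared and the replicate block gave 0, DESeq2 gave 4, the covariate and leaving out the 5 libraries 7, and leaving out single libraries 0 to 3. Counts over the NAC family were recomputed only without the 5 libraries, which moved 4 h against 2 h from 1 to 11 in WT and from 6 to 18 in grf6 grf8, with 58 genes tested. The counts over all genes moved too. DESeq2 called 1658 of all genes in WT and 3246 in grf6 grf8 at 4 h against 2 h. The shares of all genes under the other alternatives, except leaving out the 5 libraries, are not given here. These counts of the 10 genes can therefore not be read as particular to them. In WT 484 rose and 400 fell of 18841 with all libraries. Without the 5, 2114 and 1885 did so of the 18581 tested in both fits. In grf6 grf8 these were 1195 and 1091, and 3138 and 2705. Same-number pairs all correlated over 0.1 only between the genotypes at 0 h, where some pairs with different numbers did too, up to 0.377. The replicate block also called 0 of the 10 genes there. Over all groups 21 of 60 same-number pairs correlated over 0.1 (median -0.0274), and 8 of 24 libraries were most like one with their own number. With the replicate block, ANAC055 (0.92, adjusted p = 0.0684) and RD26 (0.92, adjusted p = 0.06) lost their call in grf6 grf8 at 4 h against 2 h in edgeR, and no other call of the 10 genes changed. ATAF2 in grf6 grf8 at 4 h against 0 h lost its call with no low-count filter (0.49, adjusted p = 0.0585) and with only the groups compared (0.54, adjusted p = 0.0853). For the comparison averaged over the times, a fit of only the groups compared is the same fit and was not run. Depth limits NAC016 most, at 47 to 216 counts per library.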
